A study of Mus musculus with 3 samples.

Results

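The miR-29 family on these arrays was taken as 4 mature miRNAs, mmu-miR-29a-3p, mmu-miR-29b-3p, mmu-miR-29c-3p and mmu-miR-29a-5p (the prefix, for mouse, is dropped in most places below), found by their names among the 1881 mouse miRNAs of an Agilent microarray and followed probe by probe. The RNA came from exosomes, the small vesicles that cells release, collected from cultured bone marrow mesenchymal stem cells (MSCs) of male wild type C57BL/6 mice aged 4 to 6 weeks, at passage 3 to 6. Cells of all groups grew in medium with 10% fetal bovine serum and differed in 24 h of treatment: hypoxia with GW4869 (H+G-Exo), hypoxia alone (H-Exo) or normoxia (N-Exo). GW4869 inhibits neutral sphingomyelinase, an enzyme that takes part in forming exosomes. The vesicles of a group were pelleted from the medium of 10 dishes, and a group was hybridised to a single array. Without replicate arrays, differences between groups come with no p-value, and their errors cover only the spots of an array.

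miR-29 is best known as a repressor of the extracellular matrix. Its 3p arms pair with sites in the messages of fibrillar collagens, elastin and fibrillin, and in heart, lung and kidney fibroblasts a loss of miR-29 accompanies fibrosis. The mature 3p strand is the one mostly loaded into Argonaute, and the 5p strand of the same hairpin is mostly degraded. In bone-forming cells miR-29 also limits osteonectin and promotes osteoblast differentiation. No message or protein was measured here, so nothing below bears on these targets.

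The 3 guide strands share 1 seed, the bases that choose the targets, shown in capitals (positions 2 to 8 from the 5′ end, RefSeq sequences on GRCm38.p6). They are printed because they differ by so few bases that their probes could share signal, which bears on how far the members can be told apart.
mmu-miR-29a-3p: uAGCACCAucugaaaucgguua
mmu-miR-29b-3p: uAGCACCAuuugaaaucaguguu
mmu-miR-29c-3p: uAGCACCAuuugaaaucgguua
mmu-miR-29a-5p: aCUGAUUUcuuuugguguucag
Among RefSeq mouse miRNAs the seed AGCACCA belonged to 3 mature sequences, all of them members. Counted from the 5′ end, miR-29c-3p differs from miR-29a-3p by 1 substitution, C10U. miR-29b-3p differs from miR-29a-3p by C10U, G18A, U21G and A22U over the 22 positions that both have. The passenger strand miR-29a-5p has another seed, CUGAUUU, and so another set of possible targets.

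The hairpins lie in 2 pairs. Mir29a (chr6:31062660-31062747, minus strand) and Mir29b-1 (chr6:31063023-31063093, minus strand) are 275 bases apart on chromosome 6, and no other gene of the RefSeq table overlaps them. Mir29b-2 (chr1:195037040-195037120, plus strand) and Mir29c (chr1:195037547-195037634, plus strand) are 426 bases apart on chromosome 1, within the bounds of the gene A330023F24Rik. Mature miR-29b-3p is the same sequence from both loci, so its probes cannot say which locus it came from.

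Each 3p member had 2 probes, all complementary to the 3′ end of the miRNA and differing in how far they reach towards its 5′ end. Capitals mark the bases opposite the seed.
miR-29a-3p, 19 bases: taaccgatttcagaTGGTG
miR-29a-3p, 20 bases: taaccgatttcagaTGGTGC
miR-29b-3p, 20 bases: aacactgatttcaaaTGGTG
miR-29b-3p, 21 bases: aacactgatttcaaaTGGTGC
miR-29c-3p, 21 bases: taaccgatttcaaaTGGTGCT
miR-29c-3p, 22 bases: taaccgatttcaaaTGGTGCTa
Aligned without gaps, both miR-29c-3p probes have 1 mismatch to miR-29a-3p, and both miR-29a-3p probes have 1 mismatch to miR-29c-3p. Cross-hybridization between these 2 members was not tested. At matching positions from the 5′ end the miR-29b-3p probes have 4 mismatches to miR-29a-3p and 3 to miR-29c-3p. They also have 1 base opposite the last base of miR-29b-3p, which the other 2 members lack.

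Signals are background-subtracted brightness, averaged over the spots of a probe (± SD over those spots, which is technical error within 1 array) then scaled, that is, divided by their array's 75th percentile over probes detected on all arrays. The divisor was 468.9 in H+G-Exo, 235.0 in H-Exo and 417.3 in N-Exo. Detection of a probe required over 50% of its kept spots to be well above background, and the arrays detected 675 miRNAs in H+G-Exo, 586 in H-Exo and 685 in N-Exo. All 3 arrays shared 1 slide and 1 scan. As a check of the source, 8, 7 and 8 of the 8 stromal marker miRNAs were detected in H+G-Exo, H-Exo and N-Exo, while none of the 2 endothelial, 5 epithelial and 1 liver marker miRNAs was detected on any array. Of 5 blood cell markers 2 were detected on each array, of 4 muscle and heart markers 2, 1 and 2, and of 3 neuronal markers 0, 0 and 1. The summed scaled signal of the detected stromal markers was 50.9 in H+G-Exo, 127.9 in H-Exo and 293.4 in N-Exo, so it moved in the same order as the miR-29 members, and its part in their differences was not tested. For exosomal RNA, fewer vesicles from a cell type and less of a miRNA per vesicle cannot be told apart.

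All 3 guide strands of the family were detected on all 3 arrays, and miR-29a-5p on none. The guide strands were lowest in H+G-Exo, intermediate in H-Exo and highest in N-Exo. With this scaling each was more than 2-fold lower with GW4869 than in hypoxia alone. By at least 2-fold and more than 2 standard errors over spots, 148 of all 566 measured miRNAs were lower too (26.1%). Without scaling none of the 3 was 2-fold lower, and 1.23% of all measured miRNAs were. After hypoxia alone only miR-29c-3p was more than 2-fold lower than in normoxia by its brightest probe. In that comparison 62 of all 582 measured miRNAs were lower by the same limits (10.7%).

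mmu-miR-29a-3p read 4.14 ± 0.243 in H+G-Exo (15 spots), 10.4 ± 0.236 in H-Exo (14 spots) and 20.0 ± 1.04 in N-Exo (15 spots) on its 20-base probe. On the 19-base probe it read 0.780 ± 0.0345 in H+G-Exo, 2.07 ± 0.0452 in H-Exo and 4.38 ± 0.168 in N-Exo. Both probes gave 1 order of the arrays, and no spot of one array reached the range of the next.

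mmu-miR-29b-3p read 0.996 ± 0.0257 in H+G-Exo (13 spots), 3.96 ± 0.0603 in H-Exo (12 spots) and 6.85 ± 0.449 in N-Exo (15 spots) on its 21-base probe. The 20-base probe read 0.0863 ± 0.0123 in H+G-Exo, 0.363 ± 0.0446 in H-Exo and 0.623 ± 0.0603 in N-Exo. The spot ranges of the 3 arrays did not overlap on either probe.

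mmu-miR-29c-3p read 0.105 ± 0.00554 in H+G-Exo (12 spots), 0.313 ± 0.0308 in H-Exo (15 spots) and 0.806 ± 0.0339 in N-Exo (14 spots) on its 22-base probe. The 21-base probe read 0.0832 ± 0.0100 in H+G-Exo, 0.265 ± 0.0250 in H-Exo and 0.646 ± 0.0301 in N-Exo. Here too no spot ranges overlapped. Before scaling the 22-base probe read 49.1 in H+G-Exo, close above the 30.6 to which scaled signals were floored on that array, so this member is the one measured nearest to background.

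**Figure D1:**
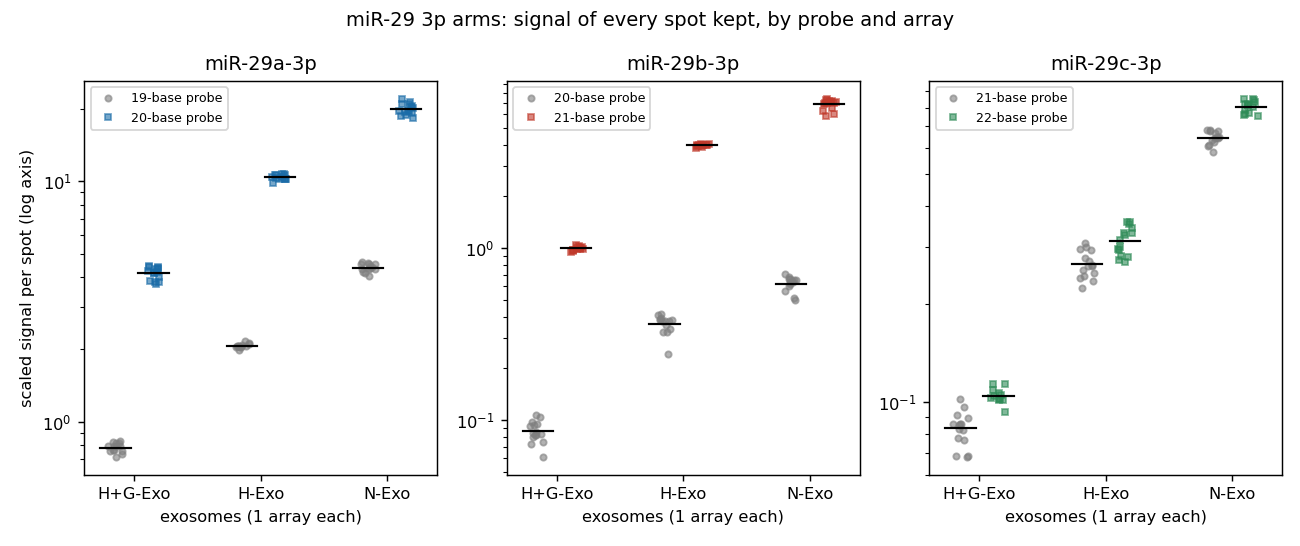
Scaled signal (log axis) of every spot kept, for the shorter probe (circles) and the longer probe (squares) of each miR-29 guide strand, in H+G-Exo, H-Exo and N-Exo (1 array each). Black bars are means over spots. On all 6 probes the spots of H+G-Exo lie below those of H-Exo, which lie below those of N-Exo.

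The position of each guide strand in the brightness order of its own array needs no scaling, although brightness also depends on the probe. miR-29a-3p ranked 54th of 675 detected miRNAs in H+G-Exo, 29th of 586 in H-Exo and 19th of 685 in N-Exo. miR-29b-3p ranked 158th in H+G-Exo, 69th in H-Exo and 49th in N-Exo. miR-29c-3p ranked 479th in H+G-Exo, 318th in H-Exo and 188th in N-Exo. The guide strands thus lost places in the same order in which their scaled signals were lower. Of the 562 miRNAs detected on all 3 arrays, 130 (23.1%) had scaled signals in this order, lowest in H+G-Exo and highest in N-Exo.

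H-Exo was set against N-Exo to compare exosomes of hypoxic and normoxic MSCs, on a single array each. miR-29c-3p fell 2.57-fold (log2 difference -1.36, SE 0.04 over spots). miR-29a-3p was 1.93-fold lower (-0.95, SE 0.02) and miR-29b-3p 1.73-fold lower (-0.79, SE 0.03), both short of the rule used here for a call, at least 2-fold and more than 2 standard errors over spots. So 1 of the 3 measured members fell, while 62 of all 582 measured miRNAs did (10.7%) and 25 rose (4.3%). The members' median log2 difference was -0.95, against 0.34 over all 582. In these differences 70 miRNAs lay below miR-29a-3p, 82 below miR-29b-3p and 29 below miR-29c-3p.

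The shorter probes gave log2 differences of -1.08 for miR-29a-3p, -0.78 for miR-29b-3p and -1.29 for miR-29c-3p. On its shorter probe miR-29a-3p was thus 2.11-fold lower and past 2-fold, so its call in this comparison rests on which probe is read. Before any scaling the 3 members were 3.42-fold, 3.07-fold and 4.57-fold lower in H-Exo on their longer probes, and all passed the rule. Without scaling 134 of all 582 measured miRNAs fell (23%) and 1 rose (0.172%), and over the 7 scalings tried 62 to 136 fell and 1 to 25 rose.

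H+G-Exo set against H-Exo compares exosomes of hypoxic cells with and without GW4869, on a single array each. miR-29b-3p fell 3.98-fold (log2 difference -1.99, SE 0.01), miR-29c-3p fell 2.99-fold (-1.58, SE 0.04) and miR-29a-3p fell 2.51-fold (-1.33, SE 0.02). All 3 measured members fell, as did 148 of all 566 measured miRNAs (26.1%), while 35 rose (6.18%). The members' median was -1.58 and that of all measured miRNAs -0.42. Only 7 of the 566 lay below miR-29b-3p, against 48 below miR-29c-3p and 93 below miR-29a-3p.

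The size of these falls depended on the scaling. Without scaling the log2 differences were -0.99 for miR-29b-3p, -0.58 for miR-29c-3p and -0.33 for miR-29a-3p, so none passed the rule, and 185 of all 567 measured miRNAs rose (32.6%) while 7 fell (1.23%). Over the 7 scalings 35 to 185 rose and 7 to 148 fell. Among the members, miR-29b-3p passed the rule in 6, miR-29c-3p in 4 and miR-29a-3p in 2. Relative to the median of all measured miRNAs, which itself moved between -0.42 and 0.57 with the scaling, miR-29b-3p stayed between -1.81 and -1.57. On the same footing miR-29c-3p lay between -1.17 and -1.15 and miR-29a-3p between -0.97 and -0.90.

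H+G-Exo and N-Exo differed in both treatments. miR-29c-3p fell 7.69-fold (log2 difference -2.94, SE 0.03), miR-29b-3p fell 6.88-fold (-2.78, SE 0.03) and miR-29a-3p fell 4.84-fold (-2.27, SE 0.03). Of all 606 measured miRNAs 158 fell (26.1%) and 111 rose (18.3%), with a median of -0.05, while the members had a median of -2.78 and all 3 fell. In this comparison 12 miRNAs lay below miR-29c-3p, 17 below miR-29b-3p and 52 below miR-29a-3p. All 3 members passed the rule under all 7 scalings, with miR-29a-3p between 3.55-fold and 4.84-fold lower. With the normexp background correction miR-29c-3p was 3.00-fold lower (-1.58), the smallest of the 3 falls, beside -2.20 for miR-29a-3p and -2.58 for miR-29b-3p. Without scaling 141 of 607 miRNAs rose and 141 fell (23.2% each), and over the scalings 111 to 169 rose and 119 to 158 fell. The 3 comparisons share arrays, so they are not separate results.

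**Figure D2:**
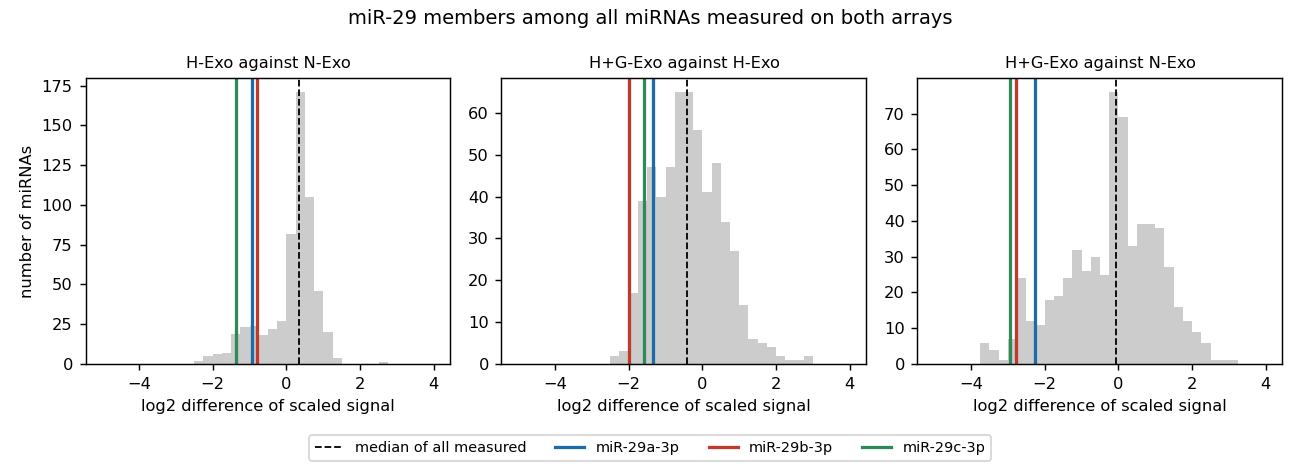
Number of miRNAs by log2 difference of scaled signal for those measured on both arrays of each comparison (582, 566 and 606 miRNAs), with the 3 miR-29 guide strands as coloured lines and the median of all measured miRNAs as a dashed line. In each panel the 3 lines lie to the left of that median.

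Changes of the members against each other do not depend on any scaling that divides an array by 1 factor. In H-Exo against N-Exo miR-29c-3p changed 1.34-fold more than miR-29a-3p (difference of log2 differences -0.42, SE 0.05) and 1.49-fold more than miR-29b-3p (-0.57, SE 0.05). With GW4869 the largest change was that of miR-29b-3p, 1.58-fold more than miR-29a-3p (-0.66, SE 0.03), and miR-29c-3p changed 1.33-fold less than miR-29b-3p (0.41, SE 0.04). Each of these 4 contrasts exceeded 2 standard errors over spots. They still compare single arrays, and those with miR-29c-3p depend on how background is corrected. With the normexp correction miR-29c-3p changed less than miR-29a-3p in H-Exo against N-Exo (difference of log2 differences 0.22, SE 0.03) and differed from miR-29b-3p by less than 2 standard errors (0.03, SE 0.03). In H+G-Exo against H-Exo that correction left miR-29b-3p the most changed member (-1.72) and miR-29c-3p the least (-0.75). The probes of 1 miRNA differed among themselves by at most 0.21 in log2 difference, for miR-29a-3p in H+G-Exo against N-Exo, and by 0.09 or less for miR-29b-3p and miR-29c-3p.

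**Figure D3:**
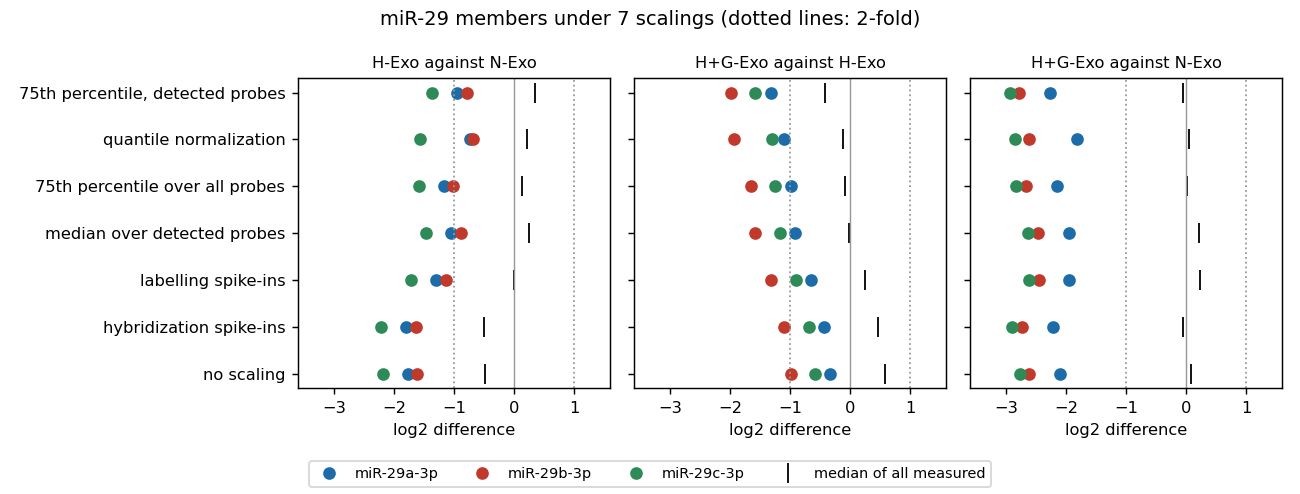
Log2 difference of each miR-29 guide strand (circles) and median of all measured miRNAs (vertical ticks) under 7 ways of scaling the arrays. Dotted lines mark 2-fold. All circles lie below 0. In H+G-Exo against H-Exo without scaling, all 3 lie between the 2-fold line and 0.

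Base composition moved with these differences. The longer probes of the members had GC contents of 45.0% for miR-29a-3p, 38.1% for miR-29b-3p and 36.4% for miR-29c-3p, against a median of 60.0% over the measured miRNAs. Across miRNAs the log2 difference was higher where probe GC content was higher. Spearman's rho was 0.44 over 582 miRNAs for H-Exo against N-Exo. It was 0.42 over 566 miRNAs for H+G-Exo against H-Exo, and 0.49 over 606 for H+G-Exo against N-Exo. The points share the 3 arrays and are not independent. Measured miRNAs whose probe GC content lay within the range of the members had median log2 differences of -0.84 (68 miRNAs), -1.22 (61 miRNAs) and -1.99 (65 miRNAs) in these comparisons, with 36.8%, 62.3% and 72.3% past the rule as lower. The members' medians in the same order were -0.95, -1.58 and -2.78, and miRNAs above that GC range had medians of 0.38, -0.30 and 0. The part of base composition in the result was not tested further.

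The passenger strands were at or near background. On its 4 probes miR-29a-5p had 0 spots well above background among those kept on any array. Its brightest probe, of 22 bases, had an unscaled signal of 5.32 ± 5.73 in H+G-Exo (7 spots), 3.65 ± 1.34 in H-Exo (6 spots) and 14.0 ± 3.13 in N-Exo (6 spots). The 99th percentile of the negative control spots was 10.04, 7.998 and 10.3 on the same arrays. No fold is given for it, since it was not well above background in any group.

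Among the other 5p arms of these loci, miR-29b-2-5p and miR-29c-5p had 0 spots well above background on the arrays. miR-29b-1-5p was detected in N-Exo only, on 1 of its 4 probes, of 22 bases, where all 7 spots were above background. That probe had an unscaled signal of 10.9 ± 4.26 in H+G-Exo, 12.1 ± 1.51 in H-Exo and 28.1 ± 4.58 in N-Exo. On the scaled values its N-Exo signal was only 1.03 times the floor of 0.0653, so no fold is given for miR-29b-1-5p. Its highest kept spot in H-Exo (0.0596) lay within the range of its N-Exo spots (0.0531 to 0.0783).

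The software's own totals for the 5p arms read differently from their probes. The listed total of miR-29a-5p in N-Exo was 2847.67, while the totals of its own probes summed to 2.96. It exceeds the listed total of miR-29a-3p on that array, 2845.85, by 1.82, which is the total of its brightest probe. The listed total of miR-29b-1-5p in H-Exo, 834.42, likewise exceeds that of miR-29a-3p, 832.81, by 1.61, the total of its own brightest probe. For the 3 guide strands the listed totals matched the sums of their own probes up to rounding. The software total was thus kept as an alternative for them, and no comparison of a 5p arm is reported from it.

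The 5 miRNAs whose levels over the 3 arrays were most like those of each guide strand were found by the distance between log2 signals centred on their mean, among 561 other miRNAs detected on all arrays. With 3 arrays such a likeness is only a description. For miR-29a-3p they were miR-669f-3p, let-7c-5p, miR-125b-5p, miR-1839-3p and miR-28a-5p, at distances of 0.06 to 0.16. let-7c-5p, a guide strand of the let-7 family, read 12.2 in H+G-Exo, 28.7 in H-Exo and 60.0 in N-Exo.

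For miR-29b-3p they were miR-96-5p, let-7e-5p, let-7d-5p, miR-103-3p and miR-5100, at distances of 0.10 to 0.19. let-7e-5p read 2.47 in H+G-Exo, 8.50 in H-Exo and 15.3 in N-Exo. For miR-29c-3p they were miR-15a-5p, miR-27a-3p, miR-467a-3p, let-7f-5p and miR-350-3p, at distances of 0.12 to 0.16. miR-15a-5p, which restrains the cell cycle, read 0.507 in H+G-Exo, 1.69 in H-Exo and 4.010 in N-Exo. The members were not each other's nearest: seen from miR-29a-3p, miR-29c-3p came 56th and miR-29b-3p 57th, and seen from miR-29b-3p, miR-29c-3p came 20th and miR-29a-3p 24th.

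A list of 19 other miRNAs linked to fibrosis and the TGF-beta pathway gave the surroundings of the family. Of 8 described as promoting fibrosis, 5 were measured in H-Exo against N-Exo, of which 3 fell (miR-21a-5p, miR-199a-5p and miR-214-3p) and 0 rose. Of 11 described as limiting it, 6 were measured, of which 3 fell (miR-26a-5p, miR-30c-5p and miR-146a-5p) and 0 rose. The median log2 differences were -1.23 and -1.39, beside the -0.95 of the miR-29 guide strands. Of all 582 measured miRNAs 10.7% fell and 4.3% rose, with a median of 0.34. Over the 7 scalings 6 to 11 of the 11 measured list members fell and none rose, while 62 to 136 of all 582 measured miRNAs fell and 1 to 25 rose. Among measured miRNAs within the GC range of the miR-29 members, 36.8% fell in this comparison. In H+G-Exo against H-Exo 62.3% of them fell, and in H+G-Exo against N-Exo 72.3%. The part of base composition in the falls of the list was not tested.

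In H+G-Exo against H-Exo 2 of 5 promoting miRNAs fell, miR-21a-5p by 2.72-fold and miR-34a-5p by 2.87-fold. Of 6 limiting miRNAs 4 fell, let-7d-5p by 3.37-fold, miR-26a-5p by 3.13-fold, miR-101a-3p by 2.28-fold and miR-30c-5p by 2.06-fold. With this scaling none rose, and miR-146a-5p, which dampens inflammatory signalling, read 0.270 in H+G-Exo against 0.252 in H-Exo. The medians were -0.98 for the promoting and -1.11 for the limiting miRNAs, beside -1.58 for the guide strands of miR-29 and -0.42 for all measured miRNAs, of which 26.1% fell and 6.18% rose. These calls depend on the scaling: without it 0 of the 11 measured list members fell and miR-146a-5p rose (log2 difference 1.09). The medians were then 0.01 for the promoting and -0.35 for the limiting miRNAs, beside 0.57 for all 567 measured miRNAs. Of those 32.6% rose and 1.23% fell without scaling.

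In H+G-Exo against N-Exo all 5 measured promoting miRNAs fell (median -1.96), and 6 of 7 limiting ones (median -2.03), while 26.1% of all 606 measured miRNAs fell and 18.3% rose, with a median of -0.05. miR-26a-5p, which restrains TGF-beta signalling, read 0.311 ± 0.0329 in H+G-Exo and 3.82 ± 0.121 in N-Exo, a 12.3-fold fall. miR-30c-5p, a repressor of connective tissue growth factor, read 0.420 ± 0.0234 in H+G-Exo and 3.08 ± 0.0290 in N-Exo, a 7.34-fold fall. miR-199a-5p, which targets caveolin in lung fibroblasts, read 0.404 ± 0.0254 in H+G-Exo and 2.60 ± 0.215 in N-Exo, a 6.42-fold fall. miR-21a-5p, which is raised in fibroblasts of failing hearts, fell 6.40-fold. The exception, miR-133a-3p, was under the floor on both arrays, and miR-101a-3p was under it in H+G-Exo, so its fold is understated. Over the 7 scalings 10 or 11 of the 12 measured list members fell in this comparison, all 5 of the promoting and 5 or 6 of the limiting ones. Of all measured miRNAs 119 to 158 fell and 111 to 169 rose over the same scalings.

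**Figure D4:**
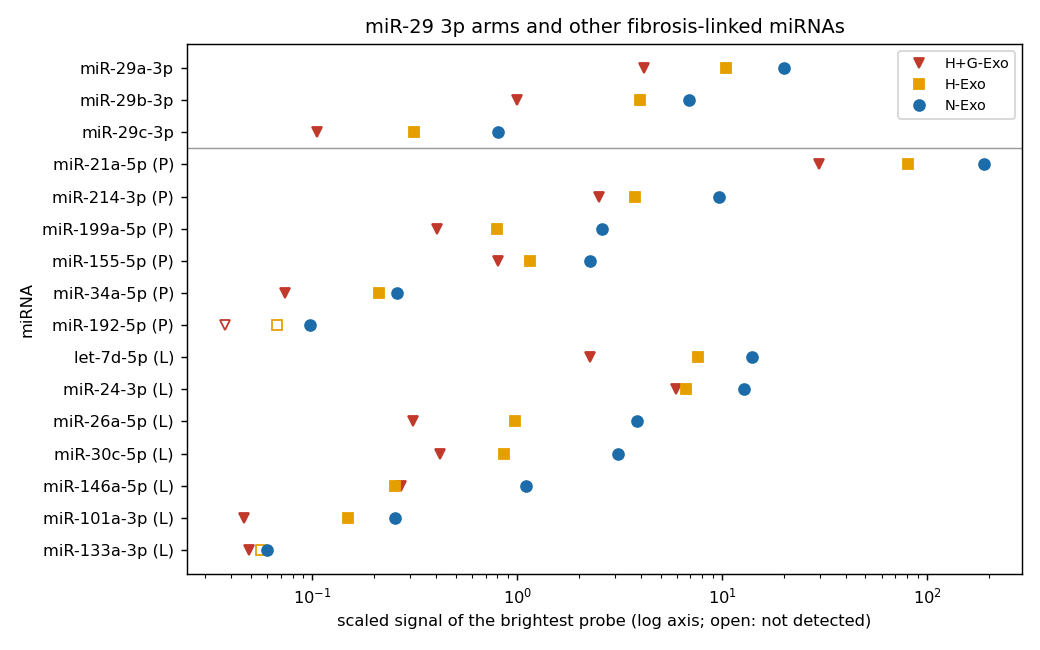
Scaled signal (log axis) of the brightest probe of the 3 miR-29 guide strands and of the fibrosis-linked miRNAs detected on at least 1 array, in H+G-Exo (triangles), H-Exo (squares) and N-Exo (circles). P marks miRNAs described as promoting and L as limiting fibrosis, and open symbols were not detected. On this scaling N-Exo is highest in every row, and H+G-Exo is lowest in all rows but that of miR-146a-5p.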

How the data were processed

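Per the file headers, the authors quantified 3 one-colour arrays with Agilent Feature Extraction 10.7.1.1 and deposited intensity values per spot, background-subtracted and not scaled between arrays. Each sample was grouped by the treatment in its labels. The design text mentions 3 samples per exosome type; here each type has 1 array, and whether RNAs were pooled is not stated. The labels' protocols name cRNA amplification and cDNA kits, so how the miRNA was labelled is uncertain. The authors' deposited value table was read as log2 values, normalized in a way the sources used here do not give.

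Control spots were left out, as were outlier spots flagged by the software. Probe means were scaled by the 75th percentile over probes detected on all 3 arrays, floored at 0.0653, and put on the log2 scale; a fold against a floored signal is understated. A miRNA took its brightest probe. A call needed detection on both arrays, a 2-fold difference and more than 2 standard errors over spots. The median spot CV of detected probes was 13.4% to 14.0%. Precision is limited by the number of arrays. The miRNAs named are the members, the other arms, the fibrosis-linked list and the 5 nearest patterns per guide strand. Members and lists were chosen with earlier results of these data known. All 7 miR-29 arms, and 1608 of the array's miRNAs, matched RefSeq. The procedure was tested on simulated data with less spot noise than these arrays and with every spot set as above background. That test therefore does not bear on detection near background. Alternatives covered scaling, background (normexp in limma 3.58.1, offset 50), spot and probe summaries, detection, the floor, the software's totals and the deposited table.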

Additional observations from a re-analysis of the deposited data

Results flagged for a closer look

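miR-29b-1-5p stands at 2.17 in H-Exo in the authors' deposited table of log2 values, at its lowest value (-3.30) in H+G-Exo and at 0.13 in N-Exo. It was singled out because that table gives a signal in H-Exo above that in N-Exo. Yet 0 of its 4 probes were detected in H-Exo and 1 in N-Exo. Its brightest probe was dimmer in H-Exo (unscaled 12.1) than in N-Exo (28.1). No comparison reported here gives that table's values for the 5p arms.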

How the results depend on the processing

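Under 15 alternatives all 135 differences of the guide strands and all 45 family medians kept their direction, below 0. These values share the same 3 arrays, and removing the floor left those of the members unchanged, so they are not separate results. In H+G-Exo against N-Exo no call of a member changed, but normexp took miR-29c-3p to -1.58. In H-Exo against N-Exo, where 1 member fell, 3 fell with the 75th percentile over all probes, no scaling, labelling spike-ins or hybridization spike-ins (medians -1.17, -1.78, -1.29 and -1.80). The shares of all measured miRNAs that fell there were 14.3%, 23%, 17% and 23.4% in the same order, against 10.7% as reported. In that comparison 2 members fell with the median over detected probes (-1.05), detection by all spots (-1.02), the software's totals (-1.17) or the median over probes (-1.01). Of all measured miRNAs 12.9% fell with the median over detected probes. For detection by all spots, the software's totals, the median over probes and normexp no such share is given. With normexp 1 fell as well, but miR-29a-3p (-1.06) in place of miR-29c-3p (-0.83), and in H+G-Exo against H-Exo miR-29c-3p no longer passed (-0.75). In H+G-Exo against H-Exo, where 3 fell, 0 fell without scaling (median -0.58) and 1 with labelling (-0.91) or hybridization spike-ins (-0.68). Of all measured miRNAs 1.23%, 6.35% and 2.82% fell under these settings in the same order, against 26.1% as reported. Contrasts between members and the fibrosis-linked list were run under these alternatives, except the median over probes, after the data were seen. Normexp turned miR-29c-3p minus miR-29a-3p to 0.22 in H-Exo against N-Exo, 0.40 with H+G-Exo over H-Exo, and 0.62 over both treatments. It turned miR-29c-3p minus miR-29b-3p to 0.026 in H-Exo against N-Exo and 1.00 in H+G-Exo against N-Exo. Normexp was run with an offset of 50. Unscaled, the brightest probe of miR-29c-3p read 49.1 in H+G-Exo, 73.6 in H-Exo and 336.2 in N-Exo. In H+G-Exo that of miR-29b-3p read 466.9 and that of miR-29a-3p 1941.2. The cause was not tested. The count of fibrosis-linked miRNAs that fell in H+G-Exo against H-Exo was 6 of 11 as reported. It was 0 of 11 without scaling or with hybridization spike-ins, 2 of 11 with labelling spike-ins and 3 of 11 with normexp. In H-Exo against N-Exo it was 6 of 11 as reported, 10 of 11 with labelling spike-ins and 10 of 13 with the software's totals. Without scaling or with hybridization spike-ins it was 11 of 11. The shares of all measured miRNAs that fell without scaling or with spike-ins are given above for both comparisons. No such share is given for normexp or the software's totals. No paired analysis was possible because each group has 1 array. Brightness near background limits miR-29c-3p in H+G-Exo.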
